A study of Sus scrofa with 6 samples.

Results

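The genes examined here carry pyruvate into the mitochondrion and turn the citrate cycle, together with complex II, the cycle enzyme that also belongs to the respiratory chain. They were chosen by symbol from a list of 37 genes. In the deposited table, 34 of them were found by their symbol, SDHA was found by its gene identifier, and an unnamed gene lay where RefSeq places MPC1. OGDHL was not in the table and was not analysed here, which left 36 of 13288 listed genes, and all 36 passed the filter on low values described below. The samples were ventricular tissue of male Tibetan minipigs, taken 12 weeks after surgery. In the DAC group (n = 3) the descending aorta was constricted with sutures, which loads the left ventricle with pressure. The sham group (n = 3) had the same opening of the chest without constriction. The sources used here give neither the age of the animals nor which ventricle the sequenced RNA came from. Each sample was 1 minipig. The sham samples are numbered 1 to 3 and the DAC samples 4 to 6.

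In heart muscle, pyruvate made from glucose or lactate enters the mitochondrion through the MPC1 and MPC2 carrier. The pyruvate dehydrogenase complex then turns it into acetyl-CoA, kinases (PDK) switch the complex off and phosphatases (PDP) switch it on again. Acetyl-CoA from pyruvate and from fatty acids enters the citrate cycle, whose dehydrogenases supply the respiratory chain with electrons. Heart muscle is rich in mitochondria and makes most of its ATP by oxidative metabolism.

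Levels are given as FPKM, fragment counts scaled to transcript length and to library size, so levels of different genes can be set side by side. A fold change is the DAC mean minus the sham mean of log2(FPKM + 1). Each was tested with limma's moderated test over the 11029 genes that had at least 1 FPKM in at least 3 samples. The study called differentially expressed genes (DEGs) on P without correction for multiple tests. Here DEG means a limma P below 0.05 before correction. No gene had a Benjamini-Hochberg adjusted P under 0.05 in limma, while 939 had an unadjusted P under 0.05, and the smallest adjusted P among the pathway genes was 0.511. The DEGs below are therefore single-gene calls that did not pass the correction for multiple tests. FPKM does not hold read numbers, so the spread between minipigs is the only measure of precision. With 3 minipigs against 3, the smallest two-sided P of an exact permutation test is 0.10.

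The cycle enzymes OGDH, SDHA and MDH2 were lower in the DAC group, by 16.5% to 19.3% of the sham mean FPKM, and the malic enzyme ME2 was higher by 27.8%. These 4 genes were the DEGs among the 36, beside 8.51% DEGs in either direction among all genes tested. None of the 36 had a P under 0.01, beside 1.98% of all genes tested in either direction. The 3 lower DEGs were 8.33% of the 36 genes, beside 5.27% of all genes tested, and the higher DEG was 2.78%, beside 3.25% of all genes tested. All DAC samples lay below all sham samples in 7 of the 36 genes (19.4%, beside 8.91% of all genes tested), namely DLAT, IDH3A, OGDH, SUCLG1, SDHA, FH and MDH2. All DAC samples lay above all sham samples in ME2 alone (2.78%, beside 6.01% of all genes tested). The DAC mean was below the sham mean in 27 of the 36 genes (75%, beside 53.4% of all genes tested). It was so in only 21 after quantile normalization, where the share over all genes was not computed. The median log2 fold change of the 36 genes was -0.11, beside -0.016 over all genes tested. Of the 18 cycle and complex II genes, 16 had the lower mean in the DAC group, with a median of -0.20, and of the 18 genes of pyruvate entry and its regulation, 11 did, with a median of -0.032. The number of lower DEGs changed when 1 minipig was left out. Leaving out sham replicate 3 left 0 lower DEGs, beside 3.53% of all genes tested. Leaving out sham replicate 1 left 1, beside 3.23%, and leaving out DAC replicate 5 gave 5, beside 4.40%. Across these fits the log2 fold change was -0.34 to -0.28 for OGDH, -0.32 to -0.24 for SDHA and -0.29 to -0.21 for MDH2. The higher DEGs numbered 0 when sham replicate 3 was left out, beside 2.20% of all genes tested. They numbered 2 when sham replicate 2 (beside 3.53%) or DAC replicate 4 (beside 2.79%) was left out. The median moved to -0.055 when DAC replicate 4 was left out and to -0.18 when DAC replicate 5 was. The split of the calls also depended on scaling. Of the 36 genes, 1 was a lower and 2 were higher DEGs after quantile normalization, against 3 and 2 when mitochondrially encoded genes were left out. Over all genes tested, lower and higher DEGs made up 4.30% and 3.97% after median scaling, 4.25% and 3.79% after quantile normalization and 3.70% and 4.56% when mitochondrially encoded genes were left out.

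**Figure D1:**
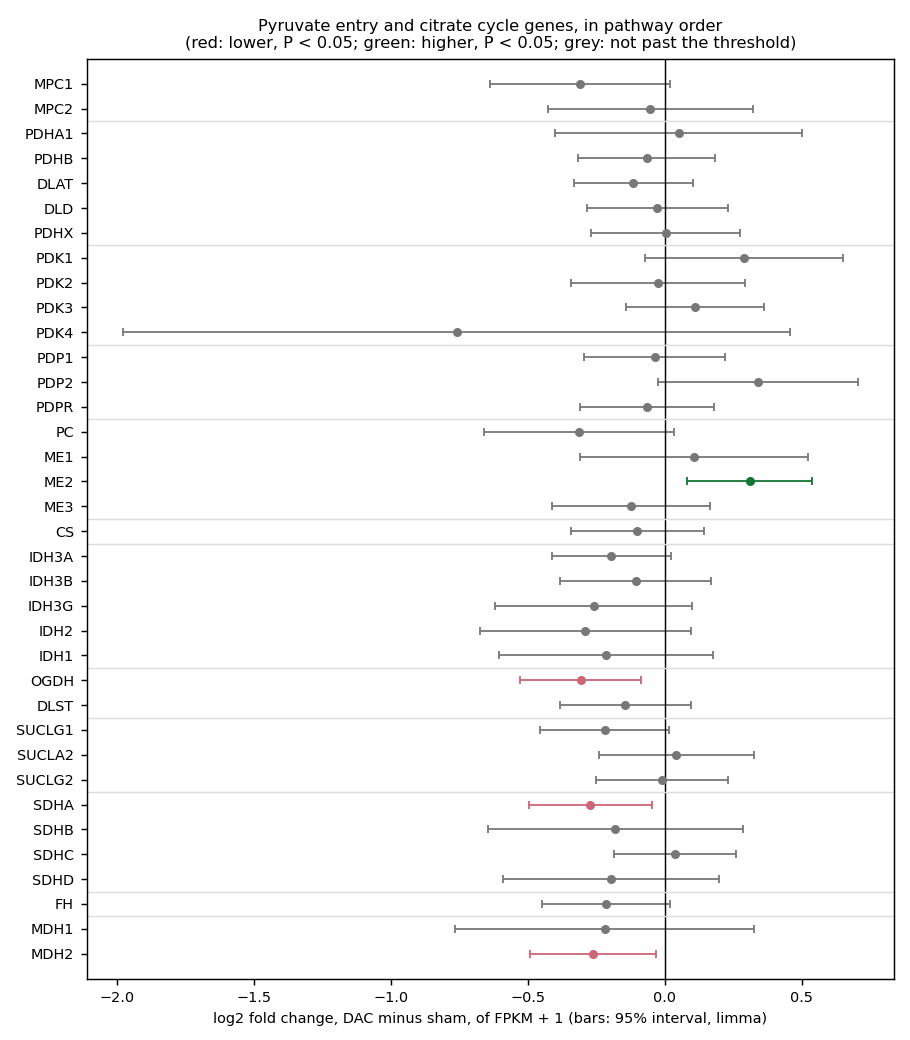
Log2 fold change of FPKM + 1 (x axis, DAC minus sham) of the 36 genes in pathway order, from the pyruvate carrier at the top to malate dehydrogenase at the bottom. Points are limma estimates and bars their 95% intervals, which lie wholly below 0 for OGDH, SDHA and MDH2 (red) and wholly above 0 for ME2 (green), while PDK4 has the widest interval, from -1.98 to 0.46.

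**Figure D2:**
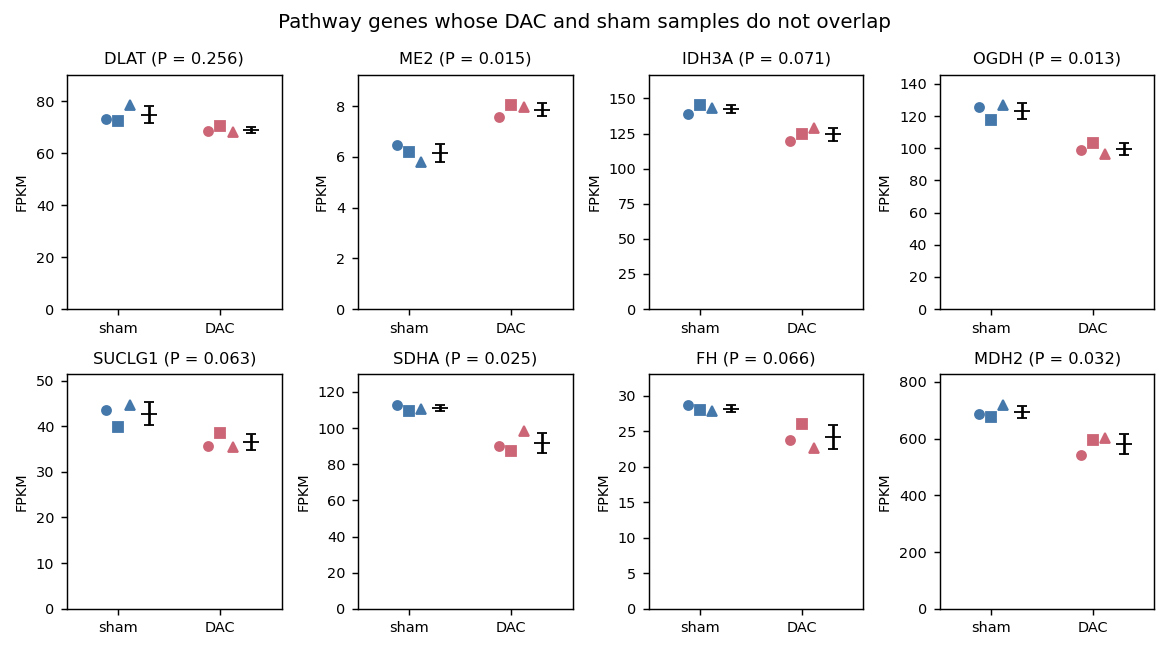
FPKM (y axis, from 0) in each of the 6 samples for the 8 genes whose groups did not overlap, with the unadjusted limma P above each panel. Circles, squares and triangles are replicates 1, 2 and 3 of the sham group (blue) and 4, 5 and 6 of the DAC group (red), and black bars are the mean ± SD; the DAC samples are the lower ones in every panel but ME2.

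The levels of the 36 genes spanned from ME1, with a mean of 1.23 FPKM over the 6 samples, to MDH2 with 637 FPKM. MDH2, the mitochondrial malate dehydrogenase, ranked 38th among all listed genes. A mean above 100 FPKM was found for 11 of the 36 genes and a mean below 10 FPKM for 7. The 7 low genes were IDH1, PDK3, PDP1, ME2, PC, PDP2 and ME1. The position of 14 of the 36 genes overlapped that of another listed gene, on the same strand for 2 of them. The sources used here do not say whether strand was used, so shared reads cannot be told apart for these 14.

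The pyruvate carrier showed no DEG. MPC2, the more abundant of its subunits, was at 25.2, 27.2 and 28.8 FPKM in the sham samples and at 22.7, 33.1 and 23.4 FPKM in the DAC samples. The DAC values of MPC2 lay on both sides of the sham values, and the log2 fold change was -0.053 (95% interval from -0.43 to 0.32, unadjusted P = 0.748, limma). MPC1, on chromosome 1 from 2541383 to 2552863, was at 16.9, 13.5 and 15.5 FPKM in the sham samples and at 10.3, 12.5 and 13.7 FPKM in the DAC samples. The groups overlapped in DAC replicate 6 and sham replicate 2, and the log2 fold change of MPC1 was -0.31 (standard error 0.14, unadjusted P = 0.0611, limma). MPC1 had a P of 0.0420 when sham replicate 2 was left out and of 0.0375 when DAC replicate 6 was. These were the overlapping samples. Only these 2 of 14 alternatives gave MPC1 a P under 0.05, and the highest P was 0.180 (limma).

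In the pyruvate dehydrogenase complex, no subunit passed the threshold. PDHA1, the catalytic E1 alpha subunit that the kinases phosphorylate, was the most abundant, at 312, 236 and 229 FPKM in the sham samples and at 308, 208 and 292 FPKM in the DAC samples. Sham replicate 1 and DAC replicates 4 and 6 were high and the other samples low, so its spread ran across both groups. The ratio of PDHA1 to its partner PDHB, the E1 beta subunit, was 3.47 to 3.52 in those high samples and 2.18 to 2.59 in the low ones. The log2 fold change of PDHA1 was 0.052 (95% interval from -0.40 to 0.50, unadjusted P = 0.793, limma). DLAT, the E2 subunit that forms the core, was at 73.3, 72.6 and 78.5 FPKM in the sham samples and at 68.5, 70.4 and 68.1 FPKM in the DAC samples. The groups of DLAT did not overlap, but the gap was small beside the pooled error, with a log2 fold change of -0.11 (standard error 0.092, unadjusted P = 0.256, limma). DLAT had a P of 0.0401 when no variance was shared between genes. No other alternative of 14 gave DLAT a P under 0.05, and the highest P was 0.575 (limma). For PDHB, DLD, the E3 subunit shared with other dehydrogenases, and PDHX, which binds E3 to the core, the log2 fold changes were -0.065, -0.027 and 0.0035. The intervals of these 3 genes lay within -0.32 and 0.28.

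None of the kinases that inactivate this complex was a DEG, and PDK4 had the widest spread of the 36 genes among the DAC minipigs. PDK4, the isoform known to be raised by fasting and fatty acids, was at 117, 85.6 and 99.3 FPKM in the sham samples. In the DAC samples it was at 52.6 FPKM in replicate 4, 138 FPKM in replicate 5 and 27.3 FPKM in replicate 6. Replicates 4 and 6 thus lay below every sham sample and replicate 5 above every sham sample. The coefficient of variation of PDK4 was 15.8% in the sham group and 80.0% in the DAC group. Its log2 fold change was -0.76 (standard error 0.52, unadjusted P = 0.184, limma), and without DAC replicate 5 it was -1.37 (unadjusted P = 0.00270, limma). The value without DAC replicate 6 was -0.22, so the size of the difference rested on single animals.

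**Figure D3:**
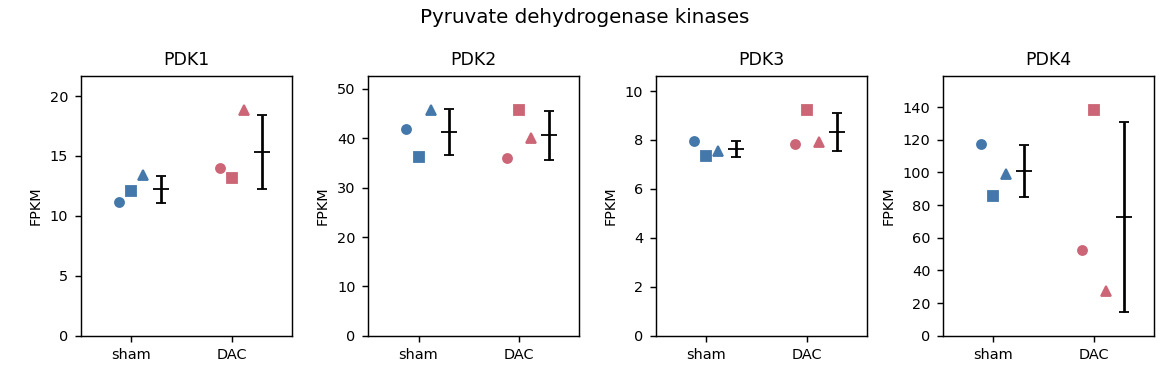
FPKM (y axis, from 0, a separate scale in each panel) of the 4 pyruvate dehydrogenase kinase genes in each sample. Circles, squares and triangles are replicates 1, 2 and 3 of the sham group (blue) and 4, 5 and 6 of the DAC group (red), and black bars are the mean ± SD; PDK4 spreads from 27.3 to 138 FPKM among the DAC samples, and PDK1 is highest in DAC replicate 6, where PDK4 is lowest.

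PDK1, the isoform known as a target of hypoxia signalling, was at 11.2, 12.1 and 13.4 FPKM in the sham samples and at 14.0, 13.2 and 18.9 FPKM in the DAC samples. Its log2 fold change was 0.29 (standard error 0.15, unadjusted P = 0.0999, limma), and it was 0.34 (unadjusted P = 0.0460, limma) after quantile normalization. No other alternative of 14 gave PDK1 a P under 0.05, and the highest P was 0.309 (limma). PDK2, the second most abundant isoform in the sham samples, had means of 41.2 ± 4.72 and 40.6 ± 4.92 FPKM (SD, n = 3) in the sham and DAC groups. PDK3 had means of 7.63 ± 0.325 and 8.33 ± 0.786 FPKM (SD, n = 3). As a share of the summed FPKM of the 4 kinase genes, PDK4 made up 65.8%, 60.6% and 59.8% in the sham samples. In the DAC samples, the PDK4 share was 47.7%, 67.0% and 29.0%. PDK4 was the leading isoform in all samples but DAC replicate 6, where PDK2 made up 42.5% and PDK1 20.0%.

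Among the phosphatase genes, PDPR, the regulatory subunit, had the highest level, at 24.1, 20.9 and 21.8 FPKM in the sham samples and at 20.6, 20.6 and 22.6 FPKM in the DAC samples. These ranges overlapped, and the log2 fold change was -0.064 (unadjusted P = 0.558, limma). The catalytic subunit PDP1 had means of 7.29 ± 0.553 and 7.08 ± 0.599 FPKM (SD, n = 3). PDP2, the other catalytic subunit, was near the filter, at 1.07, 1.67 and 1.03 FPKM in the sham samples and at 1.54, 2.18 and 1.81 FPKM in the DAC samples. Its log2 fold change was 0.34 (standard error 0.15, unadjusted P = 0.0631, limma). Leaving out sham replicate 2, its highest sham value, gave PDP2 a P of 0.0178. Leaving out DAC replicate 4 gave 0.0474, and leaving out the mitochondrially encoded genes gave 0.0476. Only these 3 of 13 alternatives gave PDP2 a P under 0.05, and the highest P was 0.175 (limma).

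Malic enzymes convert malate to pyruvate, and pyruvate carboxylase (PC) refills the cycle with oxaloacetate. ME2, the NAD-dependent mitochondrial malic enzyme on chromosome 1 from 100419427 to 100476761, was at 6.48, 6.19 and 5.78 FPKM in the sham samples and at 7.56, 8.03 and 7.97 FPKM in the DAC samples. All DAC values were above all sham values, and ME2 was the only higher DEG of the 36 genes, with a log2 fold change of 0.31 (standard error 0.097, unadjusted P = 0.0151, adjusted P = 0.522, limma). It kept a P under 0.05 in 13 of 14 alternatives, and the exception was the fit without sham replicate 3 (unadjusted P = 0.0587). ME3, the most abundant malic enzyme gene, which encodes a mitochondrial NADP-dependent isoform, was at 24.9, 28.4 and 24.0 FPKM in the sham samples. In the DAC samples ME3 was at 20.8, 25.8 and 24.3 FPKM, so the groups overlapped (log2 fold change -0.12, unadjusted P = 0.353, limma). ME1, the cytosolic isoform, had means of 1.13 ± 0.186 and 1.32 ± 0.470 FPKM (SD, n = 3).

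Because shares within a sample do not depend on its scaling, the malic enzymes were also compared as shares of their summed FPKM. ME2 made up 20.0%, 17.2% and 18.7% in the sham samples and 25.9%, 22.8% and 23.5% in the DAC samples. ME3 made up 76.9%, 79.1% and 77.9% in the sham samples and 71.4%, 73.0% and 71.6% in the DAC samples. Neither share overlapped between the groups, and these were the 2 such shares among 18 computed over 6 sets of related genes. Since ME1 made up only 2.70% to 4.91%, the ME2 and ME3 shares nearly mirror each other and amount to about 1 observation. PC was at 5.59, 4.30 and 5.66 FPKM in the sham samples and at 3.60, 3.57 and 4.76 FPKM in the DAC samples. DAC replicate 6 lay above sham replicate 2, and the log2 fold change of PC was -0.31 (standard error 0.15, unadjusted P = 0.0694, limma). Leaving out sham replicate 2 gave PC a P of 0.0300, and leaving out DAC replicate 6 gave 0.0268. Only these 2 of 13 alternatives gave PC a P under 0.05, and the highest P was 0.186 (limma).

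Citrate synthase (CS) joins acetyl-CoA to oxaloacetate, and its enzyme activity, not measured here, is widely used as a measure of mitochondrial content. The CS transcript was not a DEG. It was at 158, 141 and 147 FPKM in the sham samples and at 128, 144 and 143 FPKM in the DAC samples. DAC replicate 4 lay below all others, the remaining DAC samples fell within the sham range, and the log2 fold change was -0.10 (95% interval from -0.34 to 0.14, unadjusted P = 0.366, limma). After quantile normalization the value for CS was 0.010.

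The isocitrate dehydrogenase genes all had the lower mean in the DAC group, and none was a DEG. IDH3A, the catalytic subunit of the NAD-dependent enzyme of the cycle, was at 139, 145 and 143 FPKM in the sham samples and at 119.8, 124 and 129 FPKM in the DAC samples. The groups of IDH3A were separate, with a log2 fold change of -0.19 (standard error 0.092, unadjusted P = 0.0710, limma). When limma shared no variance between genes, the P of IDH3A was 0.00515. No other alternative of 14 gave IDH3A a P under 0.05, and the highest P was 0.309 (limma). IDH3B, a subunit of the same enzyme, had means of 113 ± 7.71 and 105 ± 11.5 FPKM (SD, n = 3). The third subunit, IDH3G, had means of 19.2 ± 3.26 and 15.8 ± 1.84 FPKM (SD, n = 3). Its P was 0.131, or 0.0317 with sham replicate 2 left out. No other alternative of 14 gave IDH3G a P under 0.05, and the highest P was 0.370 (limma).

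IDH2, the mitochondrial NADP-dependent isoform and the most abundant of the family, was at 185, 214 and 186 FPKM in the sham samples. It was at 126, 186 and 172 FPKM in the DAC samples, where replicate 4 was far below the rest and replicate 5 reached the sham range. The log2 fold change of IDH2 was -0.29 (standard error 0.16, unadjusted P = 0.119, limma), and without DAC replicate 5 it was -0.40 (unadjusted P = 0.0479, limma). No other alternative of 14 gave IDH2 a P under 0.05, and the highest P was 0.320 (limma). IDH1, the cytosolic isoform, had means of 10.8 ± 1.54 and 9.18 ± 1.78 FPKM (SD, n = 3).

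The 2-oxoglutarate dehydrogenase complex held the DEG with the smallest P of the 36 genes. OGDH, its E1 subunit, on chromosome 18 from 50609418 to 50684964, was at 125, 118 and 127 FPKM in the sham samples and at 98.7, 103 and 96.5 FPKM in the DAC samples. The lowest sham value, 118 FPKM, was well above the highest DAC value, 103 FPKM, beside SDs of 4.89 and 3.53 FPKM. The log2 fold change was -0.31 (standard error 0.094, unadjusted P = 0.0134, adjusted P = 0.511, limma). OGDH kept a P under 0.05 in 13 of 14 alternatives, all scalings included, and the exception was the fit without sham replicate 3 (unadjusted P = 0.0526). DLST, the E2 subunit and the most abundant gene of this complex, was at 141, 157 and 153 FPKM in the sham samples and at 127, 143 and 139 FPKM in the DAC samples. DAC replicate 5 lay above sham replicate 1, and the log2 fold change of DLST was -0.14 (standard error 0.10, unadjusted P = 0.201, limma). DLD, the E3 subunit, serves this complex too and is given with pyruvate dehydrogenase.

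Succinyl-CoA synthetase makes GTP or ATP directly, with SUCLG1 as the subunit common to both forms. SUCLG1 was at 43.6, 39.9 and 44.7 FPKM in the sham samples and at 35.6, 38.5 and 35.5 FPKM in the DAC samples. These groups did not overlap, and the log2 fold change of SUCLG1 was -0.22 (standard error 0.10, unadjusted P = 0.0627, limma). Its P was 0.0234 when no variance was shared between genes and 0.0468 when samples were weighted. Only these 2 of 14 alternatives gave SUCLG1 a P under 0.05, and the highest P was 0.174 (limma). SUCLA2, the ATP-forming subunit and the most abundant here, was at 55.2, 71.3 and 66.1 FPKM in the sham samples and at 65.4, 66.7 and 65.2 FPKM in the DAC samples. All DAC values of SUCLA2 fell inside the sham range, with a log2 fold change of 0.043 (95% interval from -0.24 to 0.32, unadjusted P = 0.732, limma). SUCLG2, the GTP-forming subunit, had means of 23.3 ± 0.771 and 23.2 ± 1.80 FPKM (SD, n = 3).

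Complex II, or succinate dehydrogenase, oxidises succinate to fumarate and passes the electrons to ubiquinone. SDHA, its flavoprotein subunit, on chromosome 16 from 79834044 to 79862495, was at 113, 109 and 111 FPKM in the sham samples and at 90.0, 87.6 and 98.3 FPKM in the DAC samples. The groups did not overlap, and SDHA was a DEG with a log2 fold change of -0.27 (standard error 0.096, unadjusted P = 0.0251, adjusted P = 0.553, limma). The call of SDHA was lost when sham replicate 1, 2 or 3 was left out (unadjusted P = 0.0768, 0.0538 and 0.0668), when DAC replicate 5 was (unadjusted P = 0.0608) and after quantile normalization (unadjusted P = 0.0783). SDHB, the iron-sulfur subunit and the most abundant of the complex, was at 121, 113 and 134 FPKM in the sham samples and at 78.7, 129 and 123 FPKM in the DAC samples. DAC replicate 4 alone was outside the sham range, the log2 fold change of SDHB was -0.18 (unadjusted P = 0.392, limma), and it was 0.044 without that replicate.

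The membrane anchors of complex II are SDHC and SDHD. SDHD was at 121, 97.0 and 119 FPKM in the sham samples and at 78.3, 102 and 115 FPKM in the DAC samples, with overlapping groups (log2 fold change -0.20, unadjusted P = 0.279, limma). SDHC had a much lower level, with means of 12.7 ± 0.605 and 13.1 ± 0.351 FPKM (SD, n = 3) and a log2 fold change of 0.037 (95% interval from -0.19 to 0.26). The ratio of SDHA to SDHC in a sample, which does not depend on scaling, was between 8.23 and 9.15 in the sham samples and between 6.80 and 7.39 in the DAC samples. The ratio of SDHB to SDHC was between 8.47 and 11.1 in the sham samples and between 5.95 and 10.2 in the DAC samples. The SDHA ratio was thus separate between the groups and the SDHB ratio was not. Of 10 ratios computed between pathway genes, chosen after the values were seen and not tested, 2 were separate, and the other was MDH2 to CS, at 4.35 to 4.90 in the sham samples and 4.13 to 4.22 in the DAC samples.

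Fumarase (FH), which hydrates fumarate to malate, was at 28.7, 27.9 and 27.8 FPKM in the sham samples and at 23.8, 26.0 and 22.7 FPKM in the DAC samples. All DAC values of FH were the lower ones, and its log2 fold change was -0.21 (standard error 0.099, unadjusted P = 0.0655, limma). The P of FH was 0.0212 when no variance was shared between genes, 0.0491 when samples were weighted and 0.0409 when DAC replicate 5 was left out. Only these 3 of 14 alternatives gave FH a P under 0.05, and the highest P was 0.180 (limma).

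Malate dehydrogenase closes the cycle. MDH2, the mitochondrial enzyme on chromosome 3 from 10120084 to 10132830, was at 688, 677 and 719 FPKM in the sham samples and at 541, 596 and 604 FPKM in the DAC samples. The DAC samples were all below the sham samples, and MDH2 was a DEG with a log2 fold change of -0.26 (standard error 0.098, unadjusted P = 0.0319, adjusted P = 0.563, limma). Of the 14 alternatives, 7 kept the call. It was lost when sham replicate 1, 2 or 3 was left out (unadjusted P = 0.0814, 0.0645 and 0.121), when DAC replicate 4 or 6 was (unadjusted P = 0.0544 and 0.0501), after median scaling (unadjusted P = 0.0585) and after quantile normalization (unadjusted P = 0.0754). The position of MDH2 overlaps STYXL1 on the other strand. MDH1, the cytosolic enzyme of the malate-aspartate shuttle, was at 99.2, 79.8 and 134 FPKM in the sham samples and at 70.1, 111 and 86.2 FPKM in the DAC samples. Its coefficients of variation of 26.4% and 23.1% were wider than the difference between the means (log2 fold change -0.22, unadjusted P = 0.375, limma).

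**Figure D4:**
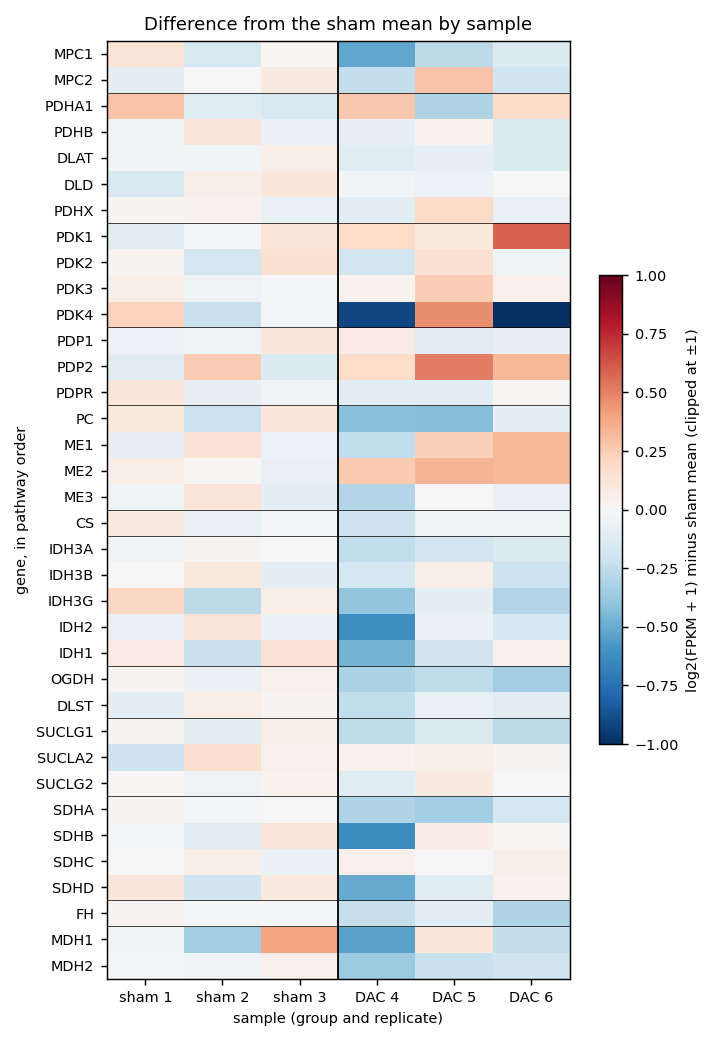
Difference of log2(FPKM + 1) from the sham mean for each of the 36 genes (rows, in pathway order) in each sample (columns). Blue is below and red above the sham mean, and the colour scale ends at -1 and 1, which 1 value (PDK4 in DAC replicate 6) exceeds; the column of DAC replicate 4 is the bluest, with 18 of the 36 genes at their lowest.

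The DAC minipigs were not alike. DAC replicate 4 held the lowest of the 6 values in 18 of the 36 genes, DAC replicate 5 in 4 and DAC replicate 6 in 7, and each sham sample in 1 to 3. The median difference of the 36 genes from the sham mean was -0.24 in DAC replicate 4, -0.048 in DAC replicate 5 and -0.079 in DAC replicate 6 on the log2 scale. In the sham samples, it was between -0.039 and 0.024. Over all genes tested, the same median was between -0.039 and 0.011 in the DAC samples. The 36 genes together made up 1.35% to 1.42% of the summed FPKM without mitochondrially encoded genes in the sham samples and 1.20%, 1.35% and 1.27% in DAC replicates 4, 5 and 6. The share of mitochondrially encoded genes in the summed FPKM was 24.0% to 25.3% in the sham samples, 27.2% and 27.1% in DAC replicates 4 and 6 and 32.8% in DAC replicate 5. All 13 mitochondrially encoded genes had the higher mean in the DAC group, beside 5145 of all 11029 genes tested. Higher DEGs were 3 of the 13 (23.1%, beside 3.25% of all genes tested). Since FPKM is a share of all fragments, these transcripts enter every other value. With them left out and the rest rescaled, OGDH, SDHA and MDH2 remained lower DEGs (3 of 36, beside 3.70% of all genes tested). The lower mean was then found in 23 of the 36 genes, and the share over all genes was not computed for this scaling. The median log2 fold change was -0.066, beside 0.020 over all genes tested.

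Enzymes and regulators next to the pathway were taken from a list of 62 genes, of which 55 were in the table and 52 were tested. In the DAC group, 7 of the 52 were lower DEGs (13.5%, beside 5.27% of all genes tested) and 1 was a higher DEG (1.92%, beside 3.25%). Their median log2 fold change was -0.14. ACSS1, which makes acetyl-CoA from acetate in mitochondria, had means of 42.8 ± 3.82 and 30.2 ± 4.45 FPKM (SD, n = 3) in the sham and DAC groups and a log2 fold change of -0.50. NNT, the transhydrogenase that makes mitochondrial NADPH, had a log2 fold change of -0.37, and SLC25A10, the dicarboxylate carrier, found by its gene identifier, one of -0.41. These 3 genes and SIRT5, the mitochondrial desuccinylase (log2 fold change -0.44), kept a P under 0.05 in all 14 alternatives. The position of SLC25A10 overlaps MRPL12 on the same strand and ACTG1 on the other, so shared reads cannot be told apart for it.

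Lower DEGs next to the pathway also included GOT2, the mitochondrial aspartate aminotransferase of the malate-aspartate shuttle (log2 fold change -0.26, unadjusted P = 0.0459, limma), and SIRT4 (-0.32, unadjusted P = 0.0272, limma), a mitochondrial sirtuin with means of 1.87 and 1.29 FPKM. The higher DEG was PPARGC1A, the coactivator known to drive mitochondrial biogenesis, at 24.4, 25.6 and 20.1 FPKM in the sham samples and at 34.0, 25.3 and 46.7 FPKM in the DAC samples. Its groups overlapped in DAC replicate 5, with a log2 fold change of 0.54 (unadjusted P = 0.0427, limma). GOT2 lost its call without any 1 sample other than DAC replicate 5 (P between 0.0606 and 0.145), and so did PPARGC1A (P between 0.0551 and 0.127). GOT2 also lost it after median scaling (unadjusted P = 0.0878), after quantile normalization (unadjusted P = 0.130) and when mitochondrially encoded genes were left out (unadjusted P = 0.0788), and PPARGC1A when no variance was shared between genes (unadjusted P = 0.114). SIRT4 lost it without sham replicate 1, sham replicate 3 or DAC replicate 4 (unadjusted P = 0.0501, 0.0906 and 0.0733). By list, lower DEGs were 2 of 8 carriers and shuttle enzymes, 1 of 9 anaplerotic and glutamate enzymes, 1 of 7 enzymes of acetyl- and succinyl-CoA supply and 2 of 14 regulators. None of 6 lactate and monocarboxylate genes and none of 6 lipoylation and assembly genes was a DEG.

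In whole tissue, fewer cells of a type and less RNA per cell cannot be told apart. Marker genes of 8 cell types were summed per sample. These sums are RNA of the whole tissue too, so they cannot separate the 2 either. Of 12 listed cardiomyocyte markers, 8 were found. They summed to 10579 to 11962 FPKM in the sham samples and 10394 to 12862 FPKM in the DAC samples. These ranges overlapped, but TNNT2, the most abundant marker, weighed heavily in the sum. TNNT2 was at 3593, 4616 and 4953 FPKM in the sham samples and at 5915, 3849 and 4303 FPKM in the DAC samples. The overlap of the sums therefore does not speak for the other markers. Of the 8, 6 had the lower mean in the DAC group (75%, beside 53.4% of all genes tested). RYR2 was a lower DEG (1 of 8, beside 5.27% of all genes tested). All DAC samples lay below all sham samples in ACTN2 and CKM (2 of 8, beside 8.91% of all genes tested), with log2 fold changes of -0.13 and -0.24. These markers were picked out after their values were seen. The 8 fibroblast markers summed to 482 to 555 FPKM in the sham samples and 688 to 780 FPKM in the DAC samples. These ranges did not overlap. Higher DEGs were 5 of the 8 (62.5%, beside 3.25% of all genes tested), among them COL1A1 and COL3A1, while the fibroblast genes PDGFRA, TCF21 and DCN were not. What part this difference had in the values of the 36 genes was not tested.

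Endothelial markers (8 of 8 found, 1 lower and 1 higher DEG) summed to 163 to 229 FPKM in the sham samples and 144 to 213 FPKM in the DAC samples. Smooth muscle and pericyte markers (7 of 7, 1 higher DEG) summed to 147 to 173.8 and 174.9 to 191 FPKM. These sums were separate by a narrow gap only, and none of the 7 markers had separate groups. Leukocyte markers (7 of 8, 1 lower DEG) summed to 54.8 to 61.2 and 45.2 to 73.0 FPKM. Among all genes tested, 5.27% were lower and 3.25% higher DEGs. Red blood cell markers (3 of 4) summed to 11.4 to 39.3 and 5.96 to 38.5 FPKM, with ALAS2 listed at 0 in DAC replicate 5. Adipocyte markers (2 of 4, ADIPOQ and CIDEC) reached at most 1.34 FPKM in any sample. Of the atrial markers, MYL4 and SLN were found, and they summed to at most 4.80 FPKM in the sham samples and to 10.7, 1.71 and 27.4 FPKM in DAC replicates 4, 5 and 6. The cardiomyocyte sum was far above that of every other list in each sample. NPPA and MYL7, the other atrial markers listed, were not found. The low atrial sum therefore cannot show how much atrial tissue the samples held. What part these differences had in the values of the 36 genes was not tested.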

How the data were processed

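The deposited table gives 1 column per minipig, in FPKM as the authors computed them, per the file headers, for 12476 protein-coding and 812 long non-coding genes. HISAT2 and the build susScr11 are named in the submitters' processing notes. The program that made the FPKM values and its handling of shared reads are not given in the sources used here. Libraries were built from total RNA with NEBNext Ultra reagents. Every listed gene reached 0.500 FPKM in at least 1 sample. Low values showed no steps of whole reads (at most 6 of at least 6930 genes shared a ratio between samples), so depth is unknown.

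A pseudocount of 1 was added, and the log2 values were compared with limma 3.58.1 in R 4.3.3, with a variance trend, and genes had to reach 1 FPKM in 3 or more samples. P under 0.05 without correction marked DEGs, and Benjamini-Hochberg adjustment covered the 11029 genes that passed. The labels name no batch. Pearson's correlation of samples across genes was between 0.965 and 0.977 within groups, so no library was counted as a duplicate. The highest correlation between a sham and a DAC sample, 0.974, lay inside that range. The steps were checked on simulated data. Figures used matplotlib 3.10.9.

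The members, lists, tests and alternatives were chosen with earlier results of these data known. Every listed gene found in the table is named, with every sample's value for DEGs, for genes whose groups do not overlap and for the most abundant gene of a step. Neighbouring genes are named where they are DEGs, except 1 that is counted but not reported here. The alternatives dropped the filter or raised it to 5 FPKM, scaled samples by their median, normalized quantiles, left out mitochondrially encoded genes, used a pseudocount of 0.1, shared no variance between genes, weighted samples and left out each sample.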

Additional observations from a re-analysis of the deposited data

How the results depend on the processing

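No paired analysis was possible because the groups share no replicate number in the labels. Of the 36 genes, 3 were lower DEGs and 1 was a higher DEG. With 1 sample left out, the lower DEGs numbered 0 to 5, beside 3.23% to 6.15% of all genes tested. The higher DEGs then numbered 0 to 2, beside 2.20% to 4.25%, and the median log2 fold change was between -0.18 and -0.055. Lower DEGs numbered 1 after quantile normalization (beside 4.25% of all genes tested), 7 when no variance was shared between genes (4.81%) and 5 with sample weights (5.35%). Higher DEGs numbered 2 after quantile normalization (3.79%), and 2 when mitochondrially encoded genes were dropped (4.56%). The median was -0.028 after quantile normalization, beside 0.0047 over all genes tested. Among the neighbouring genes, 7 lower and 1 higher DEGs became 4 to 9 and 0 to 2 with 1 sample left out, and the higher ones numbered 3 after quantile normalization, 3 when mitochondrially encoded genes were dropped and 0 when no variance was shared between genes. With SDHA and MPC1 left out, an alternative chosen after seeing the data, 2 lower DEGs and 1 higher DEG were found.

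Under some alternatives the direction changed in genes that were no DEGs. After quantile normalization the log2 fold change was 0.00062 for MPC2, 0.020 for PDHB, 0.024 for DLD, 0.026 for PDK2, 0.010 for CS and 0.041 for SUCLG2. When mitochondrially encoded genes were dropped, it was 0.016 for DLD, 0.020 for PDK2, 0.0023 for PDP1 and 0.033 for SUCLG2, which was 0.012 after median scaling. PDHX was at -0.0041 with sample weights. With 1 sample left out, the range was -0.061 to 0.12 for SUCLA2, -0.055 to 0.23 for PDHA1, -0.11 to 0.026 for DLD, -0.089 to 0.058 for PDHX, -0.11 to 0.058 for PDK2, -0.097 to 0.017 for PDP1, -0.060 to 0.047 for SUCLG2, -0.22 to 0.041 for MPC2, -0.31 to 0.044 for SDHB and -0.0044 to 0.28 for ME1. The cause of these changes was not tested. ME1, PDP2 and PC gave no value with the minimum of 5 FPKM, nor did SIRT4.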
